A study of Mus musculus with 10 samples.

Results

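Collagens are the trimeric proteins that give the arterial wall its tensile strength, and each of their chains is the product of its own gene. The genes described here are all those with a symbol of the form Col, a number, the letter a and a number that the array annotation gives as the single symbol of a probe set, with the brightest probe set by mean over the 10 arrays taken for genes that had more than 1. They number 44 of the 22180 named genes measured. Total RNA from whole aortas of 10 male mice of the C57BL/6 background (written C57B/L6 for the double knockout) was profiled on Affymetrix Mouse Gene 2.0 ST arrays, 1 per sample. All animals lacked apolipoprotein E (ApoE), which clears lipoprotein remnants from blood, and all were given a high fat diet for 3 weeks from the age of 8 weeks and were 11 weeks old at collection. In 5 of them ApoE was the only deleted gene, and the other 5, from a cross of IL-17-/- mice (C57BL/6J) into the ApoE-/- line, lacked the cytokine interleukin 17 (IL-17) too; the latter are called the double knockout.

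The deletions are of the whole animal and not of 1 cell type, and wild-type aortas are not analysed here, so each comparison below is between mice with and without IL-17 that all lack ApoE. The labels call the 5 arrays of a group biological replicates. For the ApoE knockout, the protocol given speaks of wild-type and ApoE/caspase-1 deficient animals and not of IL-17. No scan date or batch is given, and if the sets were processed separately, processing and genotype cannot be told apart. Probe sets for the deleted genes give no check of the labels, since where their probes lie relative to the deleted parts is not known: Il17a read 4.41 ± 0.14 (SD, n = 5) with IL-17 intact and 4.66 ± 0.17 without it, and Apoe 6.31 ± 0.16 and 6.98 ± 0.17. The tissue label was borne out by smooth muscle genes, all 8 of which lay above the level of the olfactory, vomeronasal and taste receptor genes, which an aorta is not expected to use. The 95th percentile of these 1432 receptor genes, 5.80 on the log2 scale of the deposited values, is called the receptor level below and serves as a rough mark of weak signal.

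Collagen chains wind into a triple helix in the endoplasmic reticulum after hydroxylation of proline and lysine, and the trimers then assemble outside the cell. Fibrillar collagens form the load-bearing ropes of the media and adventitia, type IV collagens form the mesh of basement membranes around smooth muscle cells and under endothelium, and other classes form short-chain networks, decorate fibrils, build beaded filaments or span cell membranes. In the artery, smooth muscle cells and adventitial fibroblasts are the main makers of fibrillar collagen, and collagen of the plaque cap is known for its part in plaque stability.

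Promoter stretches of 4 genes are shown because these genes carry the largest changes among collagens above the receptor level or, for Col4a5 and Col4a6, because both are read from neighbouring start sites in opposite directions and both rose. The bases are the 250 before the transcript start, 5′ to 3′ on the gene's own strand, from RefSeq on build GRCm38.p6. Capitals mark matches to CCAAT or ATTGG (the CCAAT box) and to GGGCGG or CCGCCC (the GC box), searched on both strands along with TATAAA or TTTATA (the TATA box). Col4a5 lies at chrX:141475169-141475418 on the plus strand, Col4a6 at chrX:141474077-141474326 on the minus strand, Col5a1 at chr2:27886175-27886424 on the plus strand and Col15a1 at chr4:47207762-47208011 on the plus strand.
Col4a5: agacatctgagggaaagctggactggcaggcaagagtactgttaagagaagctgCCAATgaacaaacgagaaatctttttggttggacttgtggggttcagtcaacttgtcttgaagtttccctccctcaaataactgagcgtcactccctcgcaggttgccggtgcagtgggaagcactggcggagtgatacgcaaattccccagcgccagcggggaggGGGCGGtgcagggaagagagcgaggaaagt
Col4a6: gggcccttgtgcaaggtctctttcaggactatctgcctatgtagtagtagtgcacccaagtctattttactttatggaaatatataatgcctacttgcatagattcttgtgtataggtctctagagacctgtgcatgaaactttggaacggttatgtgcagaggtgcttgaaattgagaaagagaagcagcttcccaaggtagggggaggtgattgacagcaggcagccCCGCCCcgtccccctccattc
Col5a1: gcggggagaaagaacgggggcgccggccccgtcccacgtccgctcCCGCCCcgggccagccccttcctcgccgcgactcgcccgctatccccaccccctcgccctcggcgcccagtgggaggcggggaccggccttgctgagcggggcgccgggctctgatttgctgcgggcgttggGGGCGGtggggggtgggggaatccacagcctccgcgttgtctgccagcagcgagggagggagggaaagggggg
Col15a1: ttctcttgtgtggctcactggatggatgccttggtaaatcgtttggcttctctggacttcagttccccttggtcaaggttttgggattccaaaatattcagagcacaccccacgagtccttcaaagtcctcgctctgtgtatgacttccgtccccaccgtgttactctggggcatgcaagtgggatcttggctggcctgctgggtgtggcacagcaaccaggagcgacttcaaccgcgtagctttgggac
The Col4a5 stretch holds 1 CCAAT box and 1 GC box, that of Col4a6 holds 1 GC box, that of Col5a1 holds 2 GC boxes, and that of Col15a1 holds none of the 3 motifs. A match is a run of letters and not a measured binding site.

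The windows in the table run from 250 bases before to 50 after the start, and 35 of the 44 collagen genes had one or more, 38 windows in all. A GC box was found in 23 of the 38 (60.5%), against 35.7% of the 32851 windows of all genes. A CCAAT box was found in 13 (34.2%, against 37.4%) and a TATA box in 5 (13.2%, against 13.6%). The windows of collagen genes had a median GC content of 59.9%, against 52.7% for all windows, and GC boxes are made of G and C alone. The Col4a5 and Col4a6 windows lie 842 bases apart, while those of Col4a1 and Col4a2, another pair read in opposite directions, overlap by 78 bases.

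Collagen chain genes were mostly higher in the double knockout. Of the 44 genes, 24 rose at an adjusted p under 0.05 by limma, 0 fell, and 20 did not pass. At an unadjusted p under 0.05 by limma, 31 were higher and 0 lower. The share of all genes at that threshold was not counted. It cannot be smaller than the adjusted share given next, so the 31 have no like share to be set against. At the adjusted threshold 30.3% of all genes passed in either direction, 22.8% were higher and 7.53% lower. The values of both groups did not overlap in 18 of the 44 collagen genes, all higher in the double knockout. Among all 22180 genes, 3460 were higher without overlap and 1065 lower, 20.4% in either direction. The median change of the 44, double knockout minus ApoE knockout, was 0.33 on the log2 scale, against 0.10 for all genes. In whole tissue, more collagen RNA per cell and more cells that make collagen cannot be told apart.

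**Figure D1:**
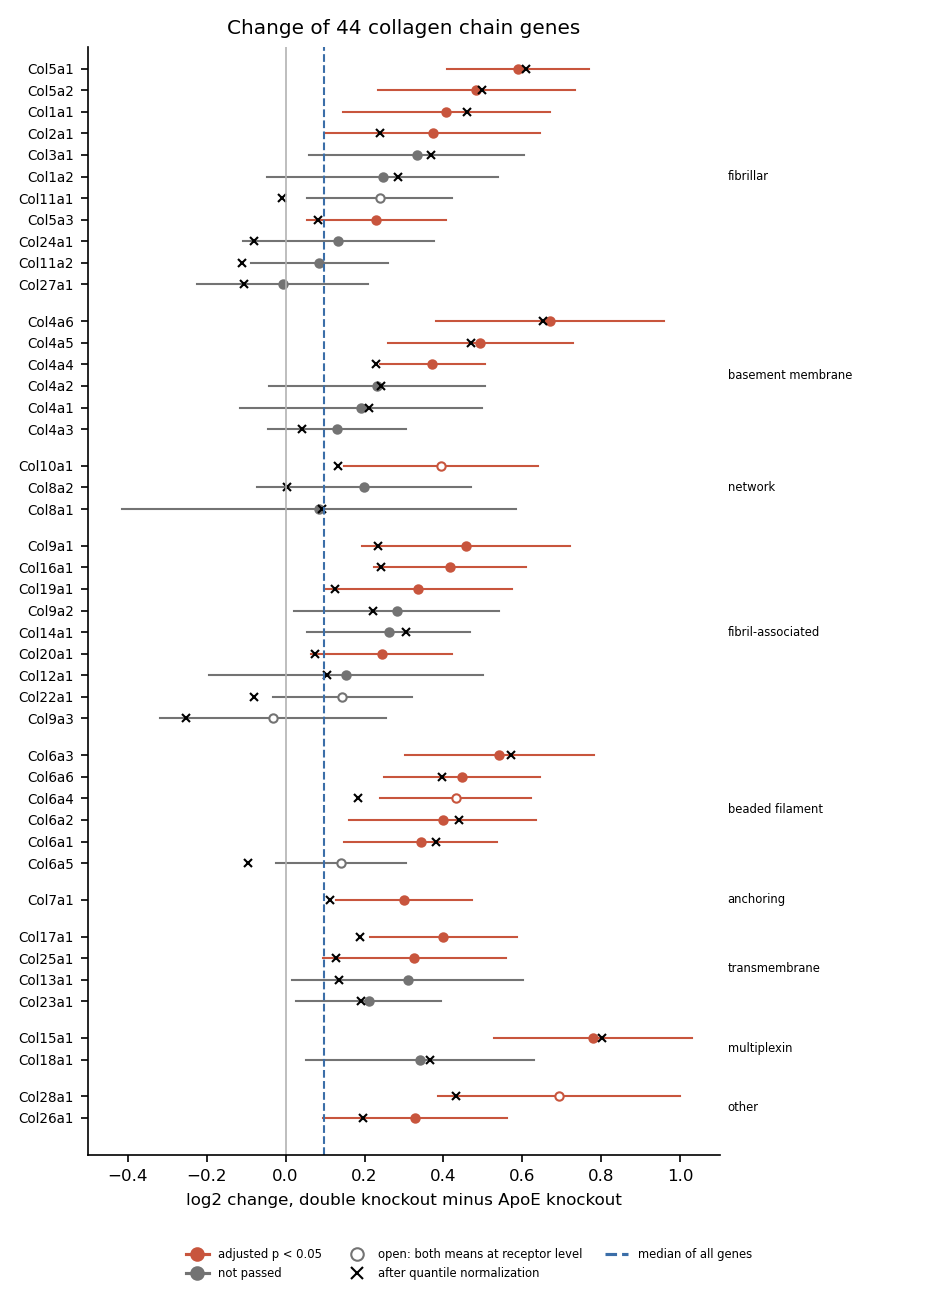
Log2 change of each of the 44 collagen genes (points) with its 95% confidence interval (lines), by structural class. Red marks the 24 genes with an adjusted p under 0.05, open points the 7 genes with both group means at the receptor level, crosses the change after quantile normalization, and the dashed line the median of all genes, 0.10. Col15a1, Col28a1, Col4a6 and Col5a1 lie farthest to the right, and Col27a1 and Col9a3 just left of 0.

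The size of these changes depends on how the arrays are scaled. Array medians ran from 5.76 to 6.03, each double knockout array lying above each ApoE knockout array, and the receptor genes read higher in the double knockout by a median of 0.29. Of all called genes 75.1% were higher as deposited, 44.4% after quantile normalization and 22.8% with arrays centred on their medians. Among all genes, 8.94% were called higher after quantile normalization and 7.52% after centring. Collagen genes called higher numbered 14 of 44 after quantile normalization and 5 of 44 after centring, with 0 lower in both. The 14 were 12 of the 24 (Col1a1, Col5a1, Col5a2, Col4a4, Col4a5, Col4a6, Col6a1, Col6a2, Col6a3, Col6a6, Col15a1 and Col28a1) with Col3a1 and Col14a1. The median of the collagen genes stood above that of all genes by 0.23 as deposited, by 0.22 after quantile normalization and by 0.23 after centring. The number of collagen genes with a positive change was 42 as deposited, 37 after quantile normalization and 33 after centring. The 5 genes called under all 3 scalings were Col15a1, Col4a6, Col5a1, Col6a3 and Col28a1.

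Weak probe sets tended to read higher in the double knockout, so the collagen genes were also set beside genes of like brightness. Among genes with both group means at the receptor level, the median change was 0.25, and among the 14105 above it, 0.02. The 37 collagen genes with 1 or both means above the level had a median of 0.33. Of these, 21 rose, against 2254 higher and 1518 lower of the 14105. Only 1 group mean lay above the level for 4 of the 37 and for 1185 of the 14105. In these 4 collagen genes it was the double knockout mean. Col9a1, Col17a1 and Col19a1 are among the 21 that rose, and Col24a1 did not pass. When all genes were ranked by mean signal and cut into 20 bins of 1109, the change of 37 of the 44 collagen genes lay above the median of its bin and that of 30 lay above its upper quartile.

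**Figure D2:**
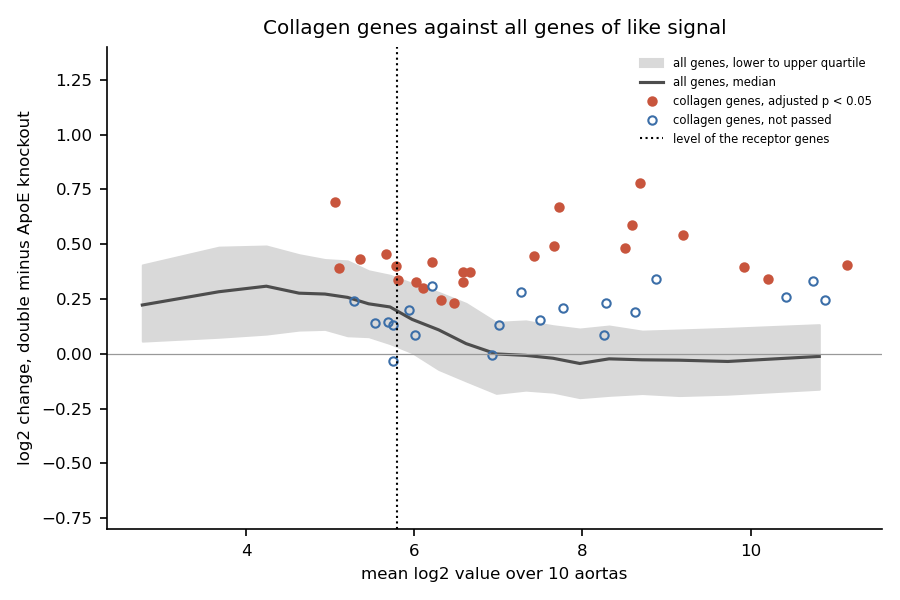
Log2 change (y axis) against the mean log2 value over the 10 aortas (x axis) for the 44 collagen genes (points, red where adjusted p was under 0.05), over the median (line) and quartiles (grey band) of all genes in 20 bins of signal. The dotted line is the receptor level of 5.80, and 30 of the 44 points lie above the band.

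Of the 11 fibrillar collagen genes, 5 rose (Col1a1, Col2a1, Col5a1, Col5a2 and Col5a3), 0 fell and 6 did not pass, with a median change of 0.25. The smallest adjusted p-values of the class were those of Col5a1 and Col5a2, chains of type V collagen, which sits in the core of type I fibrils and limits their width. Below, the 5 values of a group are given on the log2 scale in the order of replicates 1 to 5.

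Col1a1, the main chain of type I collagen, read 10.81, 11.04, 10.87, 10.94 and 11.04 across the ApoE knockouts and 11.15, 11.72, 11.55, 11.15 and 11.18 across the double knockouts. All double knockout values lay above the ApoE knockout ones, with replicates 2 and 3 far above the other double knockout aortas. The change was 0.41 (SE 0.12, adjusted p = 0.025), or 1.33-fold, and it lost its call without ApoE knockout replicate 1 or 3 or double knockout replicate 3 (adjusted p = 0.052, 0.057 and 0.060). Col1a2, the partner chain of Col1a1, read 10.74, 10.79, 10.64, 10.77 and 10.89 across the ApoE knockouts and 10.66, 11.41, 11.27, 10.83 and 10.90 across the double knockouts. Its groups overlapped: replicate 1 of the double knockout was lower than 4 of the 5 ApoE knockout aortas, while replicates 2 and 3 were the highest of the 10. The change of 0.25 (SE 0.13, adjusted p = 0.18) did not pass, and without double knockout replicate 2 it was 0.15. A second, dimmer Col1a2 probe set gave group means of 8.96 and 9.57 with no overlap, a difference of 0.61, and the mean of both probe sets passed with a change of 0.43 (adjusted p = 0.0083).

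Col3a1, the chain of the type III collagen of elastic vessels, read 10.44, 10.59, 10.50, 10.57 and 10.76 across the ApoE knockouts and 10.65, 11.27, 11.12, 10.76 and 10.72 across the double knockouts. Replicates 2 and 3 of the double knockout were again the highest, and the groups overlapped. Its change of 0.33 (SE 0.12, adjusted p = 0.062) did not pass as deposited; after quantile normalization it was 0.37 (adjusted p = 0.049), and without double knockout replicate 1 it was 0.40 (adjusted p = 0.039).

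Col5a1, the chain shared by most type V trimers, read 8.48, 8.12, 8.20, 8.29 and 8.40 across the ApoE knockouts and 8.86, 8.99, 8.95, 8.84 and 8.79 across the double knockouts. The lowest double knockout value exceeded the highest ApoE knockout value, and the double knockout values lay close together. Its change was 0.59 (SE 0.08, adjusted p = 0.00073), or 1.50-fold, and a second, dimmer probe set differed by 0.27. Col5a2, which neighbours Col3a1 on chromosome 1 with 0 genes between them, read 8.20, 8.27, 8.30, 8.09 and 8.49 across the ApoE knockouts and 8.51, 9.12, 8.76, 8.65 and 8.73 across the double knockouts. All of its double knockout values were above all ApoE knockout values, and the change was 0.48 (SE 0.11, adjusted p = 0.0095).

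Col5a3, a less common type V chain, read 6.31, 6.34, 6.29, 6.42 and 6.44 across the ApoE knockouts and 6.77, 6.58, 6.60, 6.64 and 6.36 across the double knockouts, which overlapped. The change of 0.23 (SE 0.08, adjusted p = 0.0498) is small, did not pass after quantile normalization, and lost its call when any 1 array but double knockout replicate 5 was left out (adjusted p = 0.0545 to 0.108). Col2a1, the chain of cartilage collagen, read 6.72, 6.43, 6.19, 6.53 and 6.53 across the ApoE knockouts and 7.13, 7.01, 6.87, 6.66 and 6.59 across the double knockouts, also with overlap. Its change of 0.37 (SE 0.12, adjusted p = 0.040) did not pass after quantile normalization either. Its call was lost on leaving out any 1 of the arrays other than ApoE knockout replicate 1 and double knockout replicates 4 and 5 (adjusted p = 0.056 to 0.094).

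The remaining fibrillar genes did not pass. Col11a1, Col11a2, Col24a1 and Col27a1 had changes of 0.24, 0.09, 0.13 and -0.01. Col11a1 missed the threshold narrowly (adjusted p = 0.051), but both of its means lay below the receptor level, and after quantile normalization its change was -0.01. The 95% confidence interval for Col27a1 ran from -0.23 to 0.21.

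**Figure D3:**
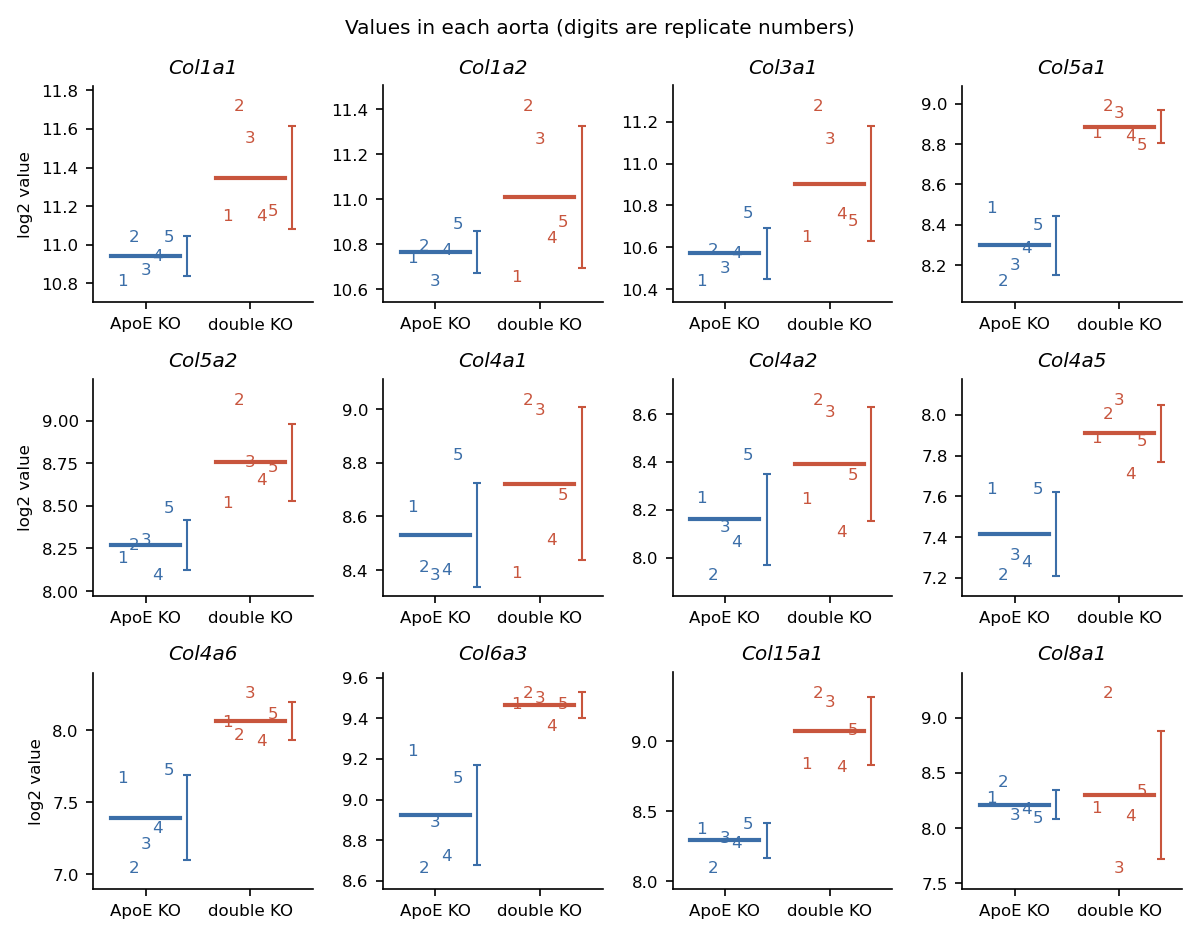
Log2 value of 12 collagen genes in each aorta, plotted as the replicate number, with the group mean (horizontal line) and SD (bar at the side); each panel has its own y axis. In Col1a1, Col1a2, Col3a1, Col4a1, Col4a2 and Col15a1 the digits 2 and 3 of the double knockout are at the top, and in Col1a1, Col5a1, Col5a2, Col4a5, Col4a6, Col6a3 and Col15a1 the groups do not overlap.

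Among the 6 chains of basement membrane collagen IV, 3 of the 4 minor chains rose, and the chains of the ubiquitous trimer did not pass. Col4a4, Col4a5 and Col4a6 rose with no overlap of the groups, and Col4a1, Col4a2 and Col4a3 did not pass. The median change of the 6 was 0.30, and the same 3 passed after quantile normalization. Whether the chains differ from each other in their change was not tested.

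Col4a1, which pairs with Col4a2 in the ubiquitous collagen IV trimer, read 8.64, 8.41, 8.38, 8.40 and 8.83 across the ApoE knockouts and 8.39, 9.03, 9.00, 8.51 and 8.68 across the double knockouts. Double knockout replicates 2 and 3 were the highest of the 10 aortas and replicate 1 of that group was the lowest of its group. The change of 0.19 (SE 0.14, adjusted p = 0.31) had a 95% confidence interval of -0.12 to 0.50 and turned to -0.01 after centring of the arrays. Without double knockout replicate 2 it was 0.11, and without replicate 3, 0.12. Col4a2 read 8.25, 7.93, 8.13, 8.07 and 8.43 across the ApoE knockouts and 8.24, 8.66, 8.61, 8.11 and 8.34 across the double knockouts, with overlap and the same 2 aortas on top. Its change was 0.23 (SE 0.13, adjusted p = 0.18), with an interval of -0.04 to 0.51.

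Col4a5, a chain of both minor collagen IV trimers, read 7.64, 7.21, 7.31, 7.28 and 7.64 across the ApoE knockouts and 7.88, 8.00, 8.07, 7.71 and 7.87 across the double knockouts. The lowest double knockout aorta stood above every ApoE knockout aorta. The change was 0.49 (SE 0.11, adjusted p = 0.0066), or 1.41-fold, and 0.47 (adjusted p = 0.014) after quantile normalization. Col4a6, which joins with Col4a5 in basement membranes of smooth muscle, read 7.67, 7.04, 7.21, 7.32 and 7.73 across the ApoE knockouts and 8.06, 7.97, 8.26, 7.92 and 8.11 across the double knockouts. Here too the groups did not overlap. At 0.67 (SE 0.13, adjusted p = 0.0041), or 1.59-fold, its change was the largest of the collagen IV genes.

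Col4a4, which with Col4a3 and Col4a5 forms the trimer known from kidney glomeruli, read 6.42, 6.41, 6.35, 6.40 and 6.38 across the ApoE knockouts and 6.80, 6.77, 6.86, 6.68 and 6.71 across the double knockouts. Every double knockout value exceeded every ApoE knockout value, and the change was 0.37 (SE 0.06, adjusted p = 0.0016). Its neighbour Col4a3, with 0 genes between them on chromosome 1, had means of 6.94 ± 0.12 and 7.07 ± 0.11 (SD, n = 5) and a change of 0.13 (SE 0.08, adjusted p = 0.23) that did not pass.

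Type VI collagen forms beaded filaments close to cells. Of its 6 genes 5 rose and 1 did not pass, with a median change of 0.41, and 4 passed after quantile normalization. Col6a1, Col6a2 and Col6a3 encode the chains of the common trimer, and Col6a4, Col6a5 and Col6a6 chains that can replace the third.

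Col6a3, the longest of these chains, read 9.24, 8.66, 8.89, 8.72 and 9.11 across the ApoE knockouts and 9.47, 9.52, 9.50, 9.36 and 9.47 across the double knockouts. The groups did not overlap, and the change was 0.54 (SE 0.11, adjusted p = 0.0045), or 1.46-fold. Col6a1 read 10.05, 9.85, 10.04, 9.96 and 10.30 across the ApoE knockouts and 10.33, 10.44, 10.51, 10.32 and 10.31 across the double knockouts. Its double knockout values all lay above the highest ApoE knockout value, that of replicate 5, by a narrow margin, with a change of 0.34 (SE 0.09, adjusted p = 0.015). A second, dimmer probe set for Col6a1 differed by 0.38.

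Col6a2, which neighbours Col6a1 on chromosome 10, read 9.66, 9.50, 9.76, 9.64 and 10.09 across the ApoE knockouts and 9.99, 10.29, 10.20, 10.10 and 10.06 across the double knockouts. The ranges overlapped through ApoE knockout replicate 5, and the change was 0.40 (SE 0.11, adjusted p = 0.018). Col6a6 read 7.47, 7.09, 7.15, 7.00 and 7.30 across the ApoE knockouts and 7.63, 7.64, 7.75, 7.61 and 7.61 across the double knockouts, without overlap and with 4 of the 5 double knockout values within a narrow band. Its change was 0.45 (SE 0.09, adjusted p = 0.0046). Col6a4 rose by 0.43 (SE 0.09, adjusted p = 0.0047), but both of its means lay below the receptor level, and it did not pass after quantile normalization. Col6a5, also below that level, differed by 0.14 and did not pass.

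The multiplexins are collagens XV and XVIII, which anchor basement membranes to the surrounding matrix and carry sugar chains, and each has a single gene here. Col15a1 had the largest change of all 44 genes. It read 8.37, 8.09, 8.31, 8.28 and 8.41 across the ApoE knockouts and 8.84, 9.34, 9.28, 8.82 and 9.08 across the double knockouts. Every double knockout aorta was above every ApoE knockout aorta, and replicates 2 and 3 were the highest. The change was 0.78 (SE 0.11, adjusted p = 0.00094), or 1.72-fold, and 0.80 (adjusted p = 0.0011) after quantile normalization. Col18a1, the source of the fragment endostatin, had means of 8.70 ± 0.26 and 9.04 ± 0.19, and its change of 0.34 (SE 0.13, adjusted p = 0.070) did not pass; without ApoE knockout replicate 5 it was 0.44 (adjusted p = 0.020).

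Fibril-associated collagens, with interrupted triple helices, sit on the surface of fibrils. Of 9 genes, 4 rose (Col9a1, Col16a1, Col19a1 and Col20a1) and 5 did not pass, with a median change of 0.26. None of these 4 passed after quantile normalization, where Col14a1 was the 1 gene of the class to pass.

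Col16a1, found with fibrils and with fibrillin microfibrils, read 6.11, 5.92, 5.90, 6.11 and 6.00 across the ApoE knockouts and 6.39, 6.56, 6.56, 6.18 and 6.42 across the double knockouts. The groups did not overlap and the change was 0.42 (SE 0.09, adjusted p = 0.0058); after quantile normalization it was 0.24 (adjusted p = 0.082). Col9a1, a cartilage collagen chain, read 5.36, 5.18, 5.32, 5.71 and 5.61 across the ApoE knockouts and 5.92, 5.85, 6.20, 5.77 and 5.72 across the double knockouts. Its values did not overlap and its change was 0.46 (SE 0.12, adjusted p = 0.016), but its ApoE knockout mean was below the receptor level. Col19a1, the gene beside Col9a1, read 5.70, 5.39, 5.71, 5.70 and 5.72 across the ApoE knockouts and 6.14, 5.78, 6.21, 6.01 and 5.75 across the double knockouts, with ApoE knockout replicate 2 far below the others and no overlap. Its ApoE knockout mean was also below the receptor level; the change was 0.34 (SE 0.11, adjusted p = 0.037). Leaving out any array except ApoE knockout replicate 5 and double knockout replicates 2 and 5 ended the call (adjusted p = 0.0506 to 0.084). Col20a1 read 6.32, 6.24, 6.20, 6.21 and 6.02 across the ApoE knockouts and 6.24, 6.54, 6.53, 6.47 and 6.42 across the double knockouts, with overlap. Its change was 0.24 (SE 0.08, adjusted p = 0.042), and the call held only without replicate 1 of either group, with adjusted p of 0.063 to 0.090 on leaving out each of the other 8 arrays.

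Col14a1, which binds fibrils through decorin and is made by adventitial fibroblasts, had means of 10.29 ± 0.12 and 10.55 ± 0.17 and a change of 0.26 (SE 0.09, adjusted p = 0.055), which did not pass. After quantile normalization it was 0.30 (adjusted p = 0.037). Col12a1, its close relative, had means of 7.42 ± 0.33 and 7.57 ± 0.23 and did not pass, with a change of 0.15 and an interval of -0.19 to 0.50. Leaving out 1 array took that change to between 0.06 (without ApoE knockout replicate 5) and 0.27 (without replicate 1 of that group), and centring to -0.05. The other type IX chains, Col9a2 and Col9a3, differed by 0.28 and -0.03 and did not pass, and Col22a1, at the receptor level in both groups, differed by 0.14 and did not pass.

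Of the 3 network-forming genes 1 passed, and the class median was 0.20. Col8a1, a short-chain collagen made by smooth muscle cells and endothelium of injured arteries, had means of 8.21 ± 0.13 and 8.30 ± 0.58. Its double knockout values spread from 7.63 to 9.22, and the change of 0.08 (SE 0.23, adjusted p = 0.80) had an interval of -0.42 to 0.58; without double knockout replicate 2 it was -0.15, and after centring -0.12. Col8a2 had means of 5.84 ± 0.11 and 6.04 ± 0.28 and did not pass, with a change of 0.20 that was 0.09 without double knockout replicate 1. Col10a1, the collagen of growth plate cartilage, rose by 0.39 (SE 0.11, adjusted p = 0.022), with both means below the receptor level. It did not pass after quantile normalization, and leaving out ApoE knockout replicate 2 or double knockout replicate 4 ended its call (adjusted p = 0.053 and 0.054).

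The anchoring, membrane-spanning and remaining collagens comprise 7 genes. Col7a1, the chain of the anchoring fibrils of skin, read 5.95, 5.78, 5.95, 6.08 and 6.04 across the ApoE knockouts and 6.40, 6.33, 6.14, 6.21 and 6.21 across the double knockouts. The groups did not overlap, and the change was 0.30 (SE 0.08, adjusted p = 0.016). Col17a1, a membrane collagen of hemidesmosomes, read 5.72, 5.47, 5.48, 5.60 and 5.67 across the ApoE knockouts and 6.20, 5.94, 5.98, 5.99 and 5.83 across the double knockouts. It too had no overlap and changed by 0.40 (SE 0.08, adjusted p = 0.0060), with an ApoE knockout mean below the receptor level. Neither passed after quantile normalization.

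Col25a1, a membrane collagen known from neurons, read 5.93, 5.87, 5.56, 5.84 and 6.12 across the ApoE knockouts and 6.18, 6.07, 6.34, 6.32 and 6.03 across the double knockouts, with overlap. Its change was 0.33 (SE 0.11, adjusted p = 0.038); as for Col19a1, the call was lost on leaving out any array except ApoE knockout replicate 5 and double knockout replicates 2 and 5 (adjusted p = 0.0505 to 0.085). Among the other membrane collagens, Col13a1 differed by 0.31 (SE 0.13, adjusted p = 0.099) and Col23a1 by 0.21 (SE 0.08, adjusted p = 0.077), and neither passed. Col26a1, known from testis and ovary, read 6.48, 6.24, 6.44, 6.48 and 6.44 across the ApoE knockouts and 7.00, 6.57, 6.98, 6.64 and 6.55 across the double knockouts. Its groups did not overlap, with ApoE knockout replicate 2 the lowest of all; the change was 0.33 (SE 0.11, adjusted p = 0.037). Without any 1 of ApoE knockout replicates 2 to 5 or double knockout replicates 1 and 3 the call was lost (adjusted p = 0.054 to 0.084). Col25a1 and Col26a1 did not pass after quantile normalization. Col28a1, known from peripheral nerve, had means of 4.71 ± 0.14 and 5.40 ± 0.32, both below the receptor level, and its change of 0.69 (SE 0.14, adjusted p = 0.0047) passed under all 3 scalings.

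The aortas were not alike within a group. Double knockout replicates 2, 3 and 1 were the highest of the 10 aortas in 15, 13 and 11 collagen genes, and replicates 4 and 5 in 3 and 0. ApoE knockout replicate 2 was the lowest of the 10 in 18 genes and replicate 3 in 13. The order of the double knockout aortas was not the same for every gene: replicates 2 and 3 led in Col1a1, Col1a2, Col3a1, Col4a1, Col4a2 and Col15a1, while replicate 1 stood out in Col13a1 and Col11a2. A fibroblast score, the mean log2 value of 7 marker genes with no collagen among them, was highest in double knockout replicates 2, 3 and 4 and lowest of that group in replicate 1. A smooth muscle score, made likewise from 8 genes, was highest in double knockout replicate 5 (11.75) and lowest of that group in replicate 2 (11.61). Whether either score goes with the collagen values was not tested.

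**Figure D4:**
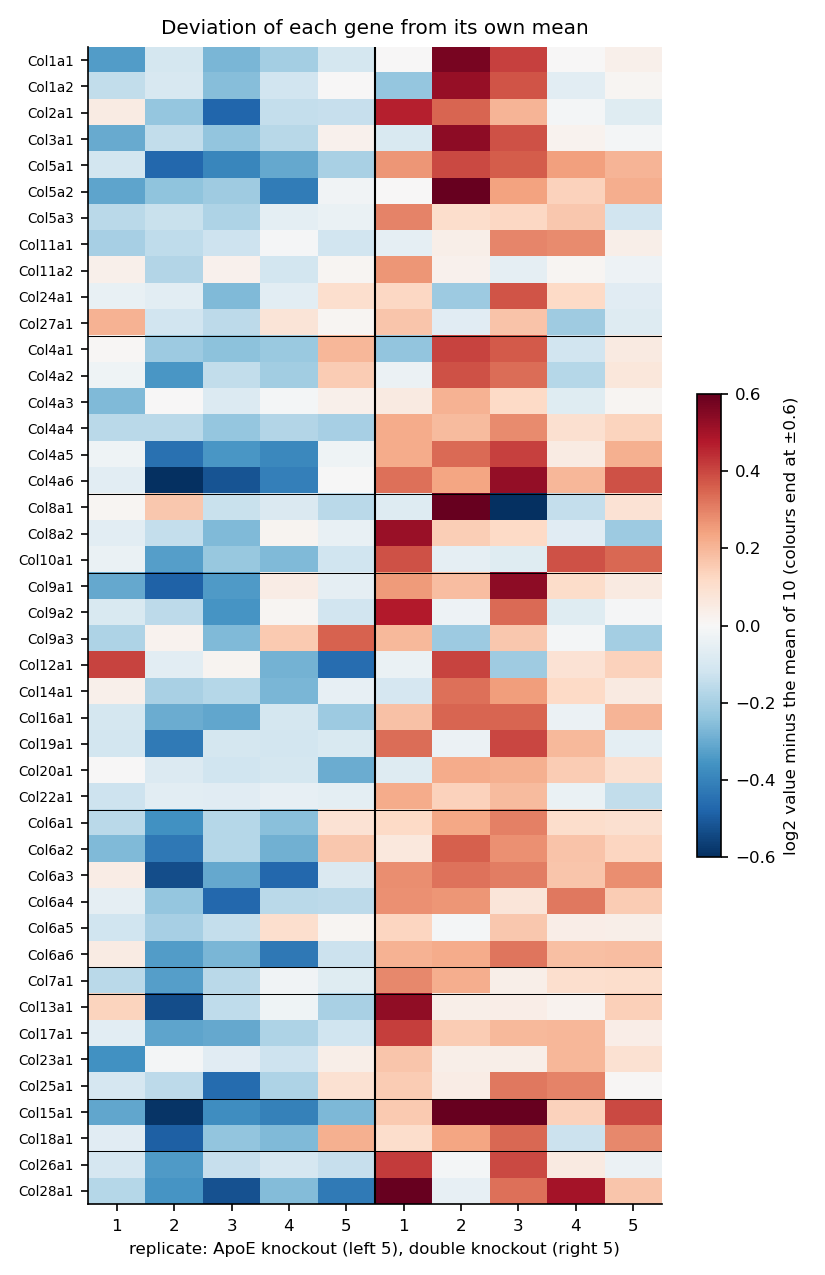
Deviation of each collagen gene (rows, ordered by class, with lines between classes) in each aorta (columns) from the gene's own mean over the 10 aortas, on the log2 scale, with red above and blue below the mean and colours ending at 0.6. ApoE knockout columns are mostly blue and double knockout columns mostly red, and the highest value of most genes lies in double knockout replicates 1, 2 or 3.

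Several collagen genes lie side by side, and differences between neighbours were not tested. On the X chromosome Col4a5 and Col4a6 both rose; on chromosome 8 Col4a1 and Col4a2 both did not pass; on chromosome 10 Col6a1 and Col6a2 both rose; on chromosome 1 Col5a2 and Col4a4 rose while their neighbours Col3a1 and Col4a3 did not pass. Il17a, the gene of IL-17A, also lies on chromosome 1, and DNA beside a deleted gene can keep the strain of the cells in which it was deleted. Col9a1 and Col19a1 are 47 and 48 genes from Il17a in the RefSeq order and both rose, while Col3a1 is 347 genes away. Of the 7 collagen genes of chromosome 1, 5 rose, with a median of 0.37, and of the 37 on other chromosomes 19 rose, with a median of 0.30. The part of neighbouring DNA in these changes was not tested.

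Genes that make, join, bind or degrade collagen were described from lists chosen by function. Of 64 measured, 22 were higher, 3 lower and 39 did not pass, with a median change of 0.17, against 0.10 for all genes, of which 22.8% were higher and 7.53% lower. Among the hydroxylases and glycosyltransferases that modify the chains 2 of 14 were higher (median 0.07), and among the basement membrane partners of collagen IV 8 of 15 (median 0.30). The 3 genes that fell were receptors and a degrading enzyme. After centring of the arrays, the split of the 64 was 5 higher and 11 lower, and that of all genes 1669 higher and 5641 lower of 22180. The 5 were Plod2, Sec24d, Lama2, Lama4 and Lamc3, and every other gene of these lists that rose as deposited lost its call.

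Plod2, which hydroxylates the lysines of collagen telopeptides and so sets the kind of crosslink, read 9.62, 9.31, 9.39, 9.50 and 9.70 against 10.19, 10.21, 10.28, 10.43 and 10.40 in the same order of groups. The groups did not overlap and the change was 0.80 (SE 0.09, adjusted p = 0.00022), or 1.74-fold. Crtap, part of the prolyl 3-hydroxylase complex, rose by 0.30 (SE 0.06, adjusted p = 0.0068). The catalytic prolyl 4-hydroxylase subunits P4ha1, P4ha2 and P4ha3 did not pass, with changes of 0.34, 0.41 and -0.48.

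Of 9 genes of folding and export, 3 rose: Sec24d and Sec23a, coat proteins of the vesicles that carry procollagen out of the endoplasmic reticulum, by 0.46 (SE 0.07, adjusted p = 0.0014) and 0.33 (SE 0.07, adjusted p = 0.0069), and the collagen-binding protein Sparc by 0.30 (SE 0.07, adjusted p = 0.0096). Serpinh1, the collagen chaperone HSP47, differed by 0.29 and did not pass (adjusted p = 0.079). Of 7 genes listed as propeptide proteases and enhancers, 3 rose. Bmp1 (0.24, adjusted p = 0.027) is a protease of the C-propeptide and Adamts3 (0.39, adjusted p = 0.0031) of the N-propeptide. The other was Tll2 (0.40, adjusted p = 0.010), whose ApoE knockout mean of 5.64 lay below the receptor level. After quantile normalization Tll2 was 0.20 and Adamts3 0.21, and neither passed (adjusted p = 0.16 and 0.064). The Bmp1 call was lost without ApoE knockout replicate 1 or 2 or double knockout replicate 2 or 3 (adjusted p = 0.053 to 0.064).

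Of 4 crosslinking enzymes, Lox and Loxl1 rose. Lox, lysyl oxidase, read 10.76, 11.02, 10.92, 11.17 and 11.09 against 11.23, 11.60, 11.39, 11.37 and 11.42, without overlap, and changed by 0.41 (SE 0.09, adjusted p = 0.0081). Loxl1, which also crosslinks elastin, changed by 0.24 (SE 0.07, adjusted p = 0.027), with overlap. Its call was lost on leaving out any array except replicate 5 of the ApoE knockout and replicates 1 and 5 of the double knockout (adjusted p = 0.0506 to 0.062).

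Of 9 collagen receptors, 3 rose and 2 fell. Itga1, the alpha chain of an integrin for collagen IV and I, Mrc2, an uptake receptor for collagen, and Ddr2, a receptor tyrosine kinase for fibrillar collagen, changed by 0.34, 0.31 and 0.21 (adjusted p = 0.026, 0.046 and 0.036). These calls are weak: Itga1 lost its call without ApoE knockout replicate 2, 3 or 4 or double knockout replicate 5 (adjusted p = 0.055 to 0.060), Mrc2 without any array except replicate 1 of either group (0.060 to 0.10) or after quantile normalization (0.053), and Ddr2 without any array except ApoE knockout replicate 5 (0.0502 to 0.083). Gp6, the collagen receptor of platelets, read 8.05, 7.54, 7.74, 7.51 and 7.24 against 6.43, 6.30, 6.12, 6.29 and 6.35. All double knockout values lay below all ApoE knockout values, with a change of -1.32 (SE 0.13, adjusted p = 0.00011). Itga2, the alpha chain of an integrin of platelets and other cells, changed by -0.46 (SE 0.12, adjusted p = 0.017). Beside these, all 3 measured red cell genes fell, with a median of -3.07 and a mean over the list of 8.48 to 9.64 and 5.95 to 6.52; the part of blood left in the aortas was not tested.

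Of 6 collagen-degrading enzymes, Mmp14, a membrane-bound collagenase, rose by 0.54 (SE 0.12, adjusted p = 0.0068). Mmp9, a gelatinase of neutrophils and macrophages, fell, with a change of -0.50 (SE 0.11, adjusted p = 0.0071). The list median was -0.01, and Mmp2, Mmp8, Mmp13 and Ctsk did not pass.

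Among the partners of collagen IV in the basement membrane, 8 of 15 rose. These were 6 laminin chain genes, Lamc3 (0.82), Lama4 (0.69), Lama2 (0.60), Lama5 (0.48), Lama1 (0.32) and Lamc1 (0.32), the perlecan gene Hspg2 (0.30) and Pxdn (0.44), whose product forms the sulfilimine bond between collagen IV trimers. Lama1 lay below the receptor level in both groups and did not pass after quantile normalization, with 0.08 (adjusted p = 0.42). Lama4, a laminin chain of vessels, read 9.90, 9.44, 9.59, 9.56 and 9.81 against 10.29, 10.21, 10.52, 10.28 and 10.43, with no overlap. Nid1, Nid2 and Agrn did not pass, with changes of 0.12, -0.05 and 0.01.

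**Figure D5:**
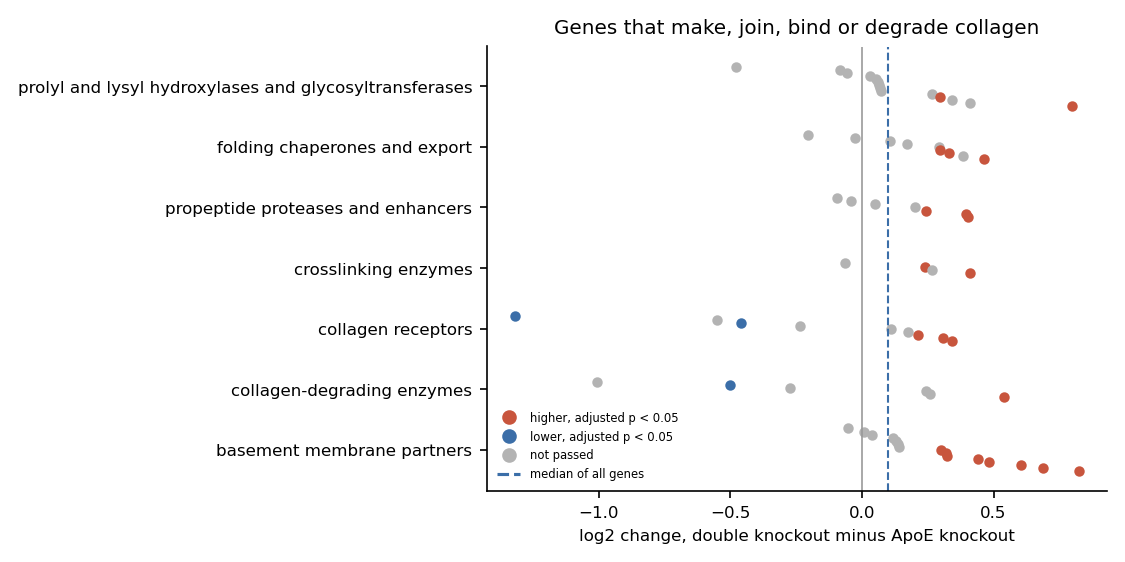
Log2 change (x axis) of the 64 measured genes of collagen modification, export, propeptide removal, crosslinking, binding, degradation and basement membrane assembly, 1 point per gene and 1 row per list. Red points rose and blue points fell at an adjusted p under 0.05; Gp6 is the point farthest to the left and Lamc3 the one farthest to the right.

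Marker genes of other cell types are given beside the share of all genes called, 22.8% higher and 7.53% lower. No such share was counted for the unadjusted p-values, so counts at that threshold have no like share beside them. The background leaned upward as deposited: 14173 of all 22180 genes had a positive change. Of 8 smooth muscle genes 2 rose, and the mean log2 value over the list was 11.24 to 11.71 among ApoE knockout and 11.61 to 11.75 among double knockout aortas. Of 7 fibroblast genes 2 rose, at 11.09 to 11.17 and 11.12 to 11.33. The 8 chondrocyte genes, from cells that make collagens II, IX and X, had 4 that rose, and their mean ran from 6.09 to 6.32 and from 6.34 to 6.57, with no overlap and with 2 genes at the receptor level in both groups and 1 in 1 group. Of 8 endothelial genes 2 fell and 0 rose by limma, at 10.23 to 10.45 and 9.96 to 10.33. At an unadjusted p under 0.05, 4 of them were lower and 0 higher. The smooth muscle, fibroblast and chondrocyte lists had 4, 2 and 4 higher genes at that threshold and 0 lower.

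The other lists were of tissues that can adhere to an aorta or lie in it. None of 6 macrophage genes passed in limma (median -0.26), nor any of 6 white adipocyte (-0.59), 5 brown adipocyte (-0.59) or 6 skeletal muscle genes (0.22). At an unadjusted p under 0.05 these lists had 1, 1, 0 and 0 lower genes and 0 higher. Of 5 Schwann cell genes 1 fell (median 0.13), of 5 mesothelium genes 1 rose (0.53) and of 6 cardiac muscle genes 2 rose (0.56). At the unadjusted threshold the Schwann cell list had 2 higher and 1 lower, mesothelium 4 and 0, and cardiac muscle 2 and 0. Of the Schwann cell genes, 2 lay at the receptor level in both groups and 2 in 1 group. In both groups 1 mesothelium gene lay at that level, and in 1 group 1 cardiac muscle gene. Brown adipocyte means spread from 9.17 to 12.07 among ApoE knockout aortas and were 9.55 to 10.97 in those also lacking IL-17. The part of a shift in the makeup of the tissue in the collagen changes was not tested.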

How the data were processed

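The data are 10 arrays of total aortic RNA, 5 per group. The authors deposited values on a log2 scale, 1 for each array and probe set; base 2 is inferred from their range. How background, array scale and probe summaries were handled is not stated in the labels or the file, and the submitters' processing notes name limma without a role. Of 41345 probe sets, 23521 had 1 symbol in the platform annotation, 1814 several and 16010 none; the probe set with the highest mean was kept per gene. No filter or further scaling was applied. The test was limma 3.58.1 in R 4.3.3 (lmFit, eBayes), group as the only term, two-sided, Benjamini-Hochberg over all 22180 genes, threshold 0.05; each adjusted p and SE is from this fit unless an alternative is named, and p-values reflect the spread between 5 animals a group. Array number limits the precision.

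Members and lists were chosen with earlier results of these data known. Values in every array are given for Col1a1, Col1a2, Col3a1, Col4a1, Col4a2 and each other called collagen gene with a group mean above the receptor level; of the function lists, each called gene is named. Other function list genes named, and the values given for some of those called, were chosen after their values were seen. Alternatives were a filter on dim genes, quantile normalization, centring, the mean of probe sets, a trended robust prior, the replicate number as a block, array weights, a threshold of 0.01, each array left out, and, added after seeing the data, quantile normalization with the filter. The filter removed genes with both group means below the receptor level. The code was tested on simulated data. Figures were drawn with matplotlib 3.10.9.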

Additional observations from a re-analysis of the deposited data

Results flagged for a closer look

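Groups of 5 arrays were examined for all collagen genes and for the function list genes that were called, 138 groups in all. Function list genes that did not pass were not examined. In 8 of the 138 groups the highest or lowest array stood apart from the other 4 by a gap over 0.71 of the group's range. Chance gives this in about 1 of 20 groups. In the double knockout, replicate 1 was high for Col11a2 (6.27, the others 5.95 to 6.03) and for Col13a1 (6.74, the others 6.23 to 6.35), and replicate 3 was high for Col6a6 (7.75, the others 7.61 to 7.64). In the ApoE knockout, replicate 2 was low for Col19a1 (5.39, the others 5.70 to 5.72) and for Col26a1 (6.24, the others 6.44 to 6.48). Replicate 3 of that group was low for Mmp9 (7.21, the others 7.57 to 7.67) and for Lama1 (5.03, the others 5.22 to 5.28), and replicate 5 was high for Loxl1 (10.81, the others 10.58 to 10.64).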

How the results depend on the processing

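As deposited, 5050 genes were higher and 1671 lower, 24 collagen genes higher with a median of 0.33, and 22 function list genes higher and 3 lower. Quantile normalization gave 1982 higher genes, 14 collagen genes (12 of the 24) and a collagen median of 0.20. Centring gave 1669 higher and 5641 lower genes, 5 collagen genes with a median of 0.12, and 5 function list genes higher and 11 lower. The filter on dim genes gave 2364 higher genes, and with quantile normalization 1563, with 13 collagen genes, a collagen median of 0.23 and 6 function list genes lower. At a threshold of 0.01, 2336 genes were higher and 634 lower, with 12 collagen genes and 14 function list genes higher. Array weights gave 5 function list genes lower. The cause of the differences between scalings was not tested.

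Leaving out 1 array gave 17 to 23 collagen genes higher, a collagen median of 0.27 to 0.34, 3935 to 5097 genes higher, 1120 to 1924 lower, and 17 to 25 function list genes higher and 3 to 8 lower (5 without ApoE knockout replicate 1, 8 without double knockout replicate 2). Of the 24 collagen calls, 16 held with each array left out, and 5 held under every alternative in which the gene was tested. No collagen call changed direction.

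With the replicate number as a block, 23 collagen genes were higher (21 of the 24), and 5 function list genes were lower. The labels do not say that aortas of the same number share anything, and the data leave a pairing unsettled: deviations of same-numbered arrays from their group means correlated at 0.26, 0.20, -0.13, 0.06 and 0.14, and 3 of the 5 ApoE knockout arrays correlated best with their own number.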
